A study of Mus musculus with 28 samples.

Results

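A set of 9 genes that vessels use to sense and answer blood flow was followed through the remodeling of the mouse arteriovenous fistula (AVF). They are *Klf2*, *Klf4*, *Nos3*, *Edn1*, *Ednra*, *Ednrb*, *Ece1*, *Piezo1*, and *Adm*. They were chosen by symbol, as rows of the bulk count table and of the single-cell matrices. All 9 were found among the 56980 genes of the bulk table, and all 9 passed the filter on low counts that left 12673 genes for testing.

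The vessels came from male and female C57BL/6 mice, and every mouse had undergone 5/6 nephrectomy, the controls included, so no group stands for a vessel with normal kidney function. In an AVF the jugular vein is sewn end to side onto the carotid artery, and the untouched jugular vein on the other side of the neck served as control. For bulk RNA, 1 library was made per vessel, from 7 veins and from AVFs at an early (8), mid (5), and late (5) time, which the labels place at days 3, 10, and 21. Single cells were sequenced as 1 library for veins and 1 for each of the early and late times, pooled from 10 vessels of both sexes, and mid AVFs were not among them. The labels give no days for the single cells, and by the study's methods both of their AVF times were later on average than the bulk times of the same name.

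Endothelial cells lining a vein read the drag of the blood on their surface. The ion channel encoded by *Piezo1* opens under that force, a kinase cascade ending in MEF2 factors switches on the transcription factors KLF2 and KLF4, and these raise *Nos3*, which makes the vasodilator nitric oxide, and restrain *Edn1*, the precursor of the vasoconstrictor endothelin-1. Endothelin-1 is cut to its active form by the protease of *Ece1* and acts through 2 receptors, the product of *Ednra* on smooth muscle and that of *Ednrb*, which in endothelium releases nitric oxide. *Adm* encodes adrenomedullin, a dilator peptide made under hypoxia and stretch.

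Bulk libraries held 20254173 to 67457501 counts. Contralateral veins were the least even group: 11.8% of values of tested genes were 0 there, against 0.155% to 1.17% in the AVF groups, and the median Spearman correlation between libraries of a group was 0.678, against 0.867 to 0.956. The sex label disagreed with the *Xist* and Y-linked genes in 8 of the 25 libraries, 2 early, 2 mid, and 4 late. The 12 endothelial markers, none of which was at 0 in a whole group, summed to 1995 to 3448 CPM (counts per 1000000 of the TMM-scaled library) in contralateral veins and to 582.7 to 1124 CPM over all AVFs. The 9 smooth muscle markers summed to 12110 to 25270 CPM against 1176 to 3860 CPM, and the 9 mono/macro markers to 735.8 to 2429 CPM against 1884 to 10620 CPM. Thyroid and parathyroid markers, from tissue beside the vessels, summed to at most 28.87 CPM in contralateral veins and reached 18610 CPM in an early AVF. In bulk tissue, fewer cells of a type and less RNA per cell cannot be told apart.

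Start sites were searched for the letters of motifs that flow-responsive and hypoxia-responsive factors are known to bind. RefSeq windows of GRCm38.p6, from 250 bases before to 50 after a start site, were matched for 8 of the 9 genes, 11 windows in all, and not for *Nos3*. The motif bound by MEF2, CTANNNNTAG searched on both strands, stood in 1 of the 11, that of *Klf2*, and in 3.69% of all 32851 windows. It is shown in capitals in the 250 bases before the *Klf2* start site (plus strand, chr8:72318812-72319061), 109 to 118 bases before it.
Klf2: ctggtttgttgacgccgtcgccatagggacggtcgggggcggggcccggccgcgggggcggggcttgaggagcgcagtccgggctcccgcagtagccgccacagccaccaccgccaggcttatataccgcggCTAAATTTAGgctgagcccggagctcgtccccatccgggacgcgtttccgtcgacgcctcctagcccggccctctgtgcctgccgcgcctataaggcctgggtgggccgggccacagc

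*Edn1* was the one gene of the set whose window held an AP-1-type site of the letters TGACTAA (2.35% of all windows) and a GATA site, AGATAA on the opposite strand (11.2%). Both are shown in capitals with 7 bases on either side, read on the plus strand, at chr13:42301477-42301496 and chr13:42301505-42301525. They lie 9 to 14 and 37 to 43 bases after the annotated start.
Edn1 GATA: ccgggtcTTATCTctggctg
Edn1 AP-1: ctgtgggTGACTAAtcacaca

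The canonical AP-1 letters TGANTCA (7.81% of all windows) were in none of the 11 windows. The KLF letters CACCC were in 7 of the 11 and in 57.5% of all windows, and 1 of the *Edn1* matches overlapped the AP-1-type site. The hypoxia response letters ACGTG stood in 3 of the 11, those of *Klf4*, *Edn1*, and 1 window of *Ece1* (19.6% of all), and TATAAA in 1, that of *Piezo1* (13.6%). A match describes letters and does not show binding.

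In bulk RNA 6 of the 9 genes were called lower after anastomosis at 1 or more times, and none was called higher, as 6.17% of all genes were early, 2.74% mid, and 2.49% late. Calls were made by edgeR's quasi-likelihood test, with a gene called where the adjusted *p* (Benjamini–Hochberg, over all genes tested) was under 0.01 and the log2 fold change 1 or more in size. Early AVFs had 5 of the 9 genes lower than contralateral veins: *Klf4*, *Nos3*, *Edn1*, *Ednra*, and *Ece1*. Over all genes, 6.45% were called lower in this comparison and 12.6% in either direction. Mid AVFs had 2 lower, *Klf2* and *Ece1* (3.31% of all genes lower, 6.05% in either direction), and late AVFs 1, *Klf2* (2.85% and 5.33%). The median log2 fold change of the 9 was -1.30 early, -1.07 mid, and -0.96 late, beside medians of -0.01, -0.10, and -0.09 over all genes. These comparisons share the same 7 veins and are given side by side.

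**Figure D1:**
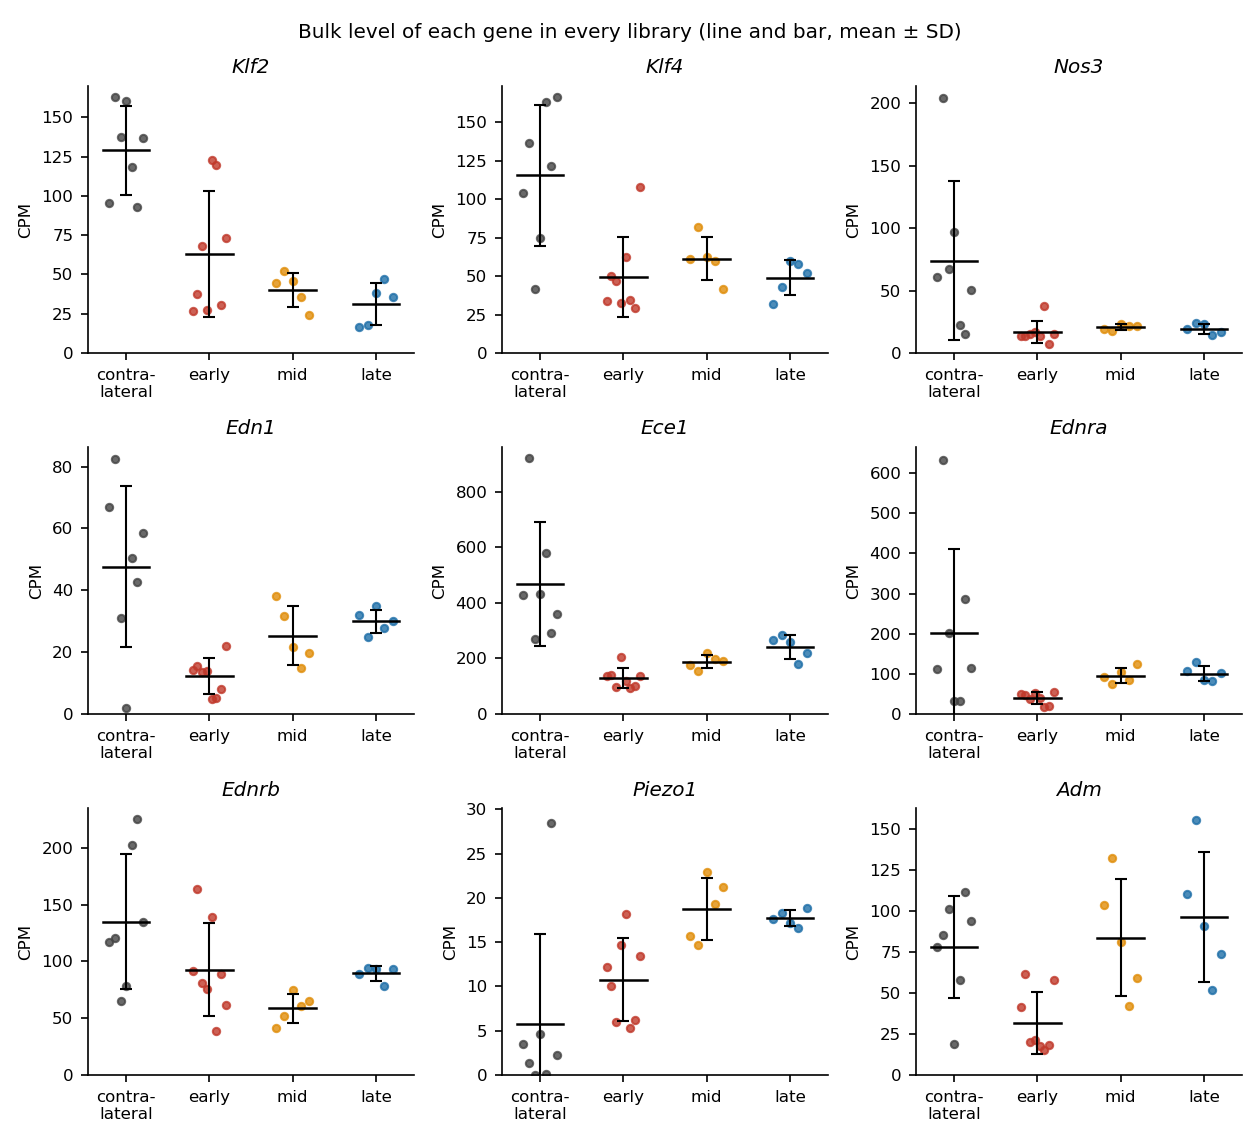
Level of each of the 9 genes in every bulk library, in CPM, by group (7 contralateral veins, 8 early, 5 mid, and 5 late AVFs); points are libraries, and the line and bar are the mean and SD. *Klf2* lies at 92.79 CPM or more in every vein and at 51.91 CPM or less in every mid and late AVF, while *Piezo1* is near 0 in all veins but 1.

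*Klf2*, the factor that carries much of the endothelial response to steady flow, was lowest in late AVFs. Contralateral veins ranged from 92.79 to 162.7 CPM with a median of 136.7, and early AVFs from 26.82 to 122.6 CPM with a median of 52.73. The 5 mid AVFs had 23.95, 35.83, 44.80, 45.55, and 51.91 CPM, and the 5 late AVFs 16.47, 17.58, 35.84, 38.24, and 47.25 CPM. Early AVFs overlapped the veins, and mid and late AVFs lay below all 7 of them, as did 4.69% and 4.25% of all genes tested. The log2 fold change from contralateral veins was -1.03 early (SE 0.342, adjusted *p* = 0.0291), not called, and -1.68 mid (SE 0.408, adjusted *p* = 0.00656) and -2.06 late (SE 0.415, adjusted *p* = 0.00156), both called. The late call held without any single library, with an adjusted *p* of at most 0.00944. The mid call was lost without vein 34, early AVF 3, or any 1 of the 5 mid AVFs, at adjusted *p* of 0.0101 to 0.0277.

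*Klf4*, its close relative, was called lower in early AVFs alone, although its late difference was as large. Veins spread from 41.37 to 166.6 CPM (median 122.0) and early AVFs from 29.18 to 107.9 CPM (median 40.63), so the groups overlapped. Mid AVFs held 41.75, 59.91, 61.34, 62.26, and 81.77 CPM, and late AVFs 32.14, 42.97, 52.10, 57.73, and 60.17 CPM. The log2 fold change was -1.22 early (SE 0.305, adjusted *p* = 0.00433), called, and -0.91 mid (adjusted *p* = 0.0903) and -1.24 late (adjusted *p* = 0.0229), not called. The early call did not hold without vein 633 or without early AVF 1, 2, 3, 4, 6, or 7, at adjusted *p* of 0.0104 to 0.0150. The late difference was called without vein 31 or early AVF 10 (adjusted *p* = 0.00997 and 0.00751).

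*Nos3*, the endothelial nitric oxide synthase, varied more among veins than any AVF group did. Veins ran from 15.16 to 204.1 CPM (median 61.18), early AVFs from 7.436 to 37.49 CPM (median 14.54). The mid AVFs had 17.43, 19.19, 21.36, 21.61, and 23.33 CPM, and the late AVFs 14.06, 17.16, 19.47, 22.96, and 23.83 CPM. All AVF groups overlapped the lowest veins, 632 at 15.16 and 35 at 22.54 CPM, and otherwise lay below. The log2 fold change was -2.15 early (SE 0.429, adjusted *p* = 0.000575), called and kept without any single library, and -1.85 mid (adjusted *p* = 0.0150) and -1.92 late (adjusted *p* = 0.0125), which missed the threshold. Without vein 35 or vein 632 the mid and late differences were called as well. Exons of *Nos3* overlap those of *Atg9b* and *Gm15587* on the other strand, and whether the counting used strand is not given in the sources used here, although those genes held only 421 and 445 counts over all libraries.

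*Edn1* fell early and stood higher again in late AVFs. Veins ranged from 1.814 to 82.33 CPM (median 50.48) and early AVFs from 4.702 to 21.88 CPM (median 13.87). Mid AVFs had 14.91, 19.86, 21.72, 31.84, and 38.18 CPM, and the late AVFs 24.94, 27.80, 30.09, 32.12, and 34.84 CPM. Vein 34 had less *Edn1* than any AVF, the other 6 veins lay above all early AVFs, and late AVFs were all above early ones. The early fall was -1.97 (SE 0.481, adjusted *p* = 0.00365), a call lost only without early AVF 6 among the 25 libraries left out in turn (adjusted *p* = 0.0105). The mid and late values were -0.91 (adjusted *p* = 0.306) and -0.67 (adjusted *p* = 0.483).

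*Ece1*, the endothelin-converting enzyme, gave the clearest separation of the set. Veins held 271.4 to 919.3 CPM (median 428.8) and early AVFs 93.17 to 204.8 CPM (median 127.6). The mid AVFs had 154.8, 176.3, 191.8, 198.2, and 218.1 CPM, and the late AVFs 178.5, 218.0, 260.5, 265.8, and 283.3 CPM. Early and mid AVFs lay below every vein, a separation in that direction shown by 2.34% and 4.69% of all genes, and late AVFs overlapped only the lowest vein. The differences were -1.87 early (SE 0.232, adjusted *p* = 1.24e-06) and -1.32 mid (SE 0.268, adjusted *p* = 0.00132), both called and kept without any single library, and -0.96 late (SE 0.265, adjusted *p* = 0.0175).

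*Ednra*, the contractile endothelin receptor, showed the deepest early fall of the set. Veins ran from 32.24 to 633.1 CPM (median 113.8), the top value coming from vein 28, and early AVFs from 17.56 to 54.79 CPM (median 42.72). Levels in mid AVFs were 74.89, 83.93, 91.37, 105.0, and 124.5 CPM, and in late AVFs 81.18, 84.30, 102.1, 106.1, and 129.0 CPM. Only veins 34 and 35 reached down into the early range, and mid and late AVFs lay above all early ones, as for 3.31% and 7.16% of all genes, and within the veins. The early fall of -2.34 (SE 0.451, adjusted *p* = 0.000384) was called, and leaving out 1 library at a time moved it between -2.62 and -1.68 with every call kept. The mid value was -1.07 (adjusted *p* = 0.181) and the late value -1.004 (adjusted *p* = 0.222), and without vein 28 they were -0.42 (adjusted *p* = 0.573) and -0.34 (adjusted *p* = 0.655). The smooth muscle markers, summed, were also lowest early; their part in the *Ednra* values was not tested.

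*Ednrb*, the second receptor, was not called at any time with all libraries. Veins ranged from 65.36 to 225.7 CPM (median 120.9) and early AVFs from 38.33 to 164.2 CPM (median 85.12). The mid AVFs had 41.45, 51.79, 61.16, 65.07, and 74.66 CPM, and the late AVFs 78.66, 89.02, 93.11, 93.18, and 94.38 CPM. The log2 fold changes were -0.54 (adjusted *p* = 0.172), -1.20 (adjusted *p* = 0.0156), and -0.59 (adjusted *p* = 0.264) early, mid, and late. The mid difference was called without vein 31 or vein 34 (adjusted *p* = 0.00993 and 0.00931). Every late AVF was above every mid AVF, as for 1.06% of all genes, but the difference of 0.61 was not called (adjusted *p* = 1.00, 95% interval -0.07 to 1.28).

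*Piezo1*, the stretch- and flow-gated channel, had the opposite sign without a call. Contralateral veins 31 and 35 had 0 and 0.0701 CPM, veins 28, 633, 27, and 34 had 1.374, 2.311, 3.520, and 4.580 CPM, and vein 632 had 28.51 CPM. Early AVFs ranged from 5.267 to 18.20 CPM (median 11.15), the mid AVFs had 14.67, 15.71, 19.26, 21.25, and 22.88 CPM, and the late AVFs 16.63, 17.14, 17.63, 18.25, and 18.88 CPM. Vein 632 exceeded every AVF, and the other 6 veins lay below all 18 of them. The fitted differences were 0.90 (SE 0.810), 1.70 (SE 0.899), and 1.62 (SE 0.898), with adjusted *p* of 0.470, 0.238, and 0.274. Without vein 632 they were 2.44, 3.25, and 3.16, and only the mid difference was then called (adjusted *p* = 0.00784). An exon of *Piezo1* overlaps *Ctu2* on the other strand, which held 9710 counts over all libraries.

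*Adm*, the adrenomedullin gene, was lowest in early AVFs without a call. Veins ranged from 18.91 to 111.7 CPM (median 85.64) and early AVFs from 15.28 to 61.39 CPM (median 20.64). Mid AVFs had 42.40, 59.08, 81.11, 103.8, and 132.5 CPM, and the late AVFs 52.04, 73.73, 90.66, 110.3, and 155.8 CPM. The groups overlapped at all times. The early difference of -1.30 (SE 0.378, adjusted *p* = 0.0132) missed the threshold and passed it without vein 34 or 35 or early AVF 2 or 10, while the mid and late differences were 0.10 (adjusted *p* = 0.921) and 0.30 (adjusted *p* = 0.717).

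Between AVF times none of the 9 was called by edgeR, in comparisons that called 0.00789% (mid against early), 3.01% (late against early), and 0% (late against mid) of all genes in either direction. At an unadjusted *p* under 0.05 they numbered 5, 5, and 0. The share of all genes under that looser limit is not given here, so these counts stand without a background. DESeq2 called 0, 1 (*Adm*), and 0, and its own totals over all genes are given further below. The highest differences of late from early AVFs were those of *Adm* (1.60, SE 0.406, adjusted *p* = 0.0140), *Ednra* (1.34, adjusted *p* = 0.0950), *Edn1* (1.30, adjusted *p* = 0.153), and *Ece1* (0.91, SE 0.247, adjusted *p* = 0.0225). The *Adm* difference was called without vein 34 or early AVF 2 or 10, at 1.61, 1.80, and 1.81 (largest adjusted *p* = 0.00691). *Klf2* went the other way, at -1.02 (adjusted *p* = 0.135). Late AVFs did not overlap early ones, on the higher side, for *Edn1* and *Ednra*, as for 7.16% of all genes. Tested together, the 4 groups (12.7% of all genes called) gave adjusted *p* of 7.33e-06 for *Ece1*, 0.000685 for *Nos3*, 0.000861 for *Klf2*, 0.00275 for *Ednra*, 0.00810 for *Klf4*, 0.0152 for *Adm*, 0.0223 for *Edn1*, 0.0447 for *Ednrb*, and 0.493 for *Piezo1*.

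Set per kilobase of exon, the order of the genes changed between veins and late AVFs. In veins *Ece1* led with 88.4 ± 42.2 CPM per kb (SD, n = 7), followed by *Klf2* (69.9 ± 15.4), *Adm* (48.3 ± 19.3), *Klf4* (37.9 ± 15.1), *Ednra* (36.8 ± 38.5), *Ednrb* (31.6 ± 14.0), *Edn1* (22.3 ± 12.2), and *Nos3* (17.9 ± 15.4), with *Piezo1* last at 0.581 ± 1.02. In late AVFs *Adm* stood first with 59.6 ± 24.4 CPM per kb (SD, n = 5), then *Ece1* (45.5 ± 8.02), *Ednrb* (21.0 ± 1.52), *Ednra* (18.4 ± 3.51), *Klf2* (16.8 ± 7.32), *Klf4* (16.1 ± 3.78), *Edn1* (14.0 ± 1.79), *Nos3* (4.72 ± 0.982), and *Piezo1* (1.78 ± 0.0894). Neighbors in these orders differed by more than the larger of their SDs only for *Klf2* above *Adm* and *Nos3* above *Piezo1* in veins, and for *Ece1* above *Ednrb*, *Edn1* above *Nos3*, and *Nos3* above *Piezo1* in late AVFs.

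Several of these genes are made by endothelium, and the summed endothelial markers were lower in AVFs, so each library was also scaled to the mean log2 level of its 12 endothelial markers. The markers did not all move alike. Of the 12, 6 were called lower and 1 higher early, 6 lower mid, and 5 lower late, and 2 had a positive log2 fold change at each time. Relative to the 12 markers 1 gene was called early, *Ednra* at -1.66 (SE 0.468, adjusted *p* = 0.00841), where 18% of all genes were called in either direction. In the single cells described below *Ednra* and *Adm* lay mainly in fibroblasts and *Ednrb* in mono/macros. The endothelial class of the vein library held 3110 of 11101 *Klf2* UMIs and 2762 of 20294 *Klf4* UMIs. Endothelial markers do not stand for the other cells that held these genes. The *Ednra* call was lost in 20 of the 25 fits that left out 1 library, at adjusted *p* of up to 0.0285, and relative to smooth muscle markers its value was 1.11. *Ece1* at -0.99 had a small adjusted *p* of 0.00302 but missed the fold limit, and *Nos3* at -1.38 (adjusted *p* = 0.0250) and *Edn1* at -1.06 (adjusted *p* = 0.0917) were not called, though *Nos3* was without vein 35, vein 632, or early AVF 6 (largest adjusted *p* = 0.00878). *Klf2* and *Klf4* changed from -1.03 and -1.22 over all RNA to -0.37 (adjusted *p* = 0.494) and -0.29 (adjusted *p* = 0.474).

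None was called by edgeR relative to endothelial markers in mid or late AVFs, where 6.89% and 5.67% of all genes were. At each time 3 had an unadjusted *p* under 0.05 (*Nos3*, *Klf2*, and *Piezo1*), a limit whose share of all genes is not given here. *Klf2* had the lowest late value, -1.48 (SE 0.461, adjusted *p* = 0.0325), and stood at -1.04 mid (adjusted *p* = 0.123). *Nos3* was at -1.17 and -1.29 (adjusted *p* = 0.148 and 0.117). *Ece1* changed from -1.32 and -0.96 over all RNA to -0.53 and -0.20 (adjusted *p* = 0.213 and 0.687). *Piezo1* was at 2.32 and 2.19 (adjusted *p* = 0.0926 and 0.118). Without vein 632 it was called higher at all 3 times, at 3.34, 4.10, and 3.97 (adjusted *p* = 0.00206, 0.00136, and 0.00199). These values depended on the markers: relative to *Pecam1* and *Cdh5* alone the early *Klf2* and *Klf4* values were 0.20 and 0.10.

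**Figure D2:**
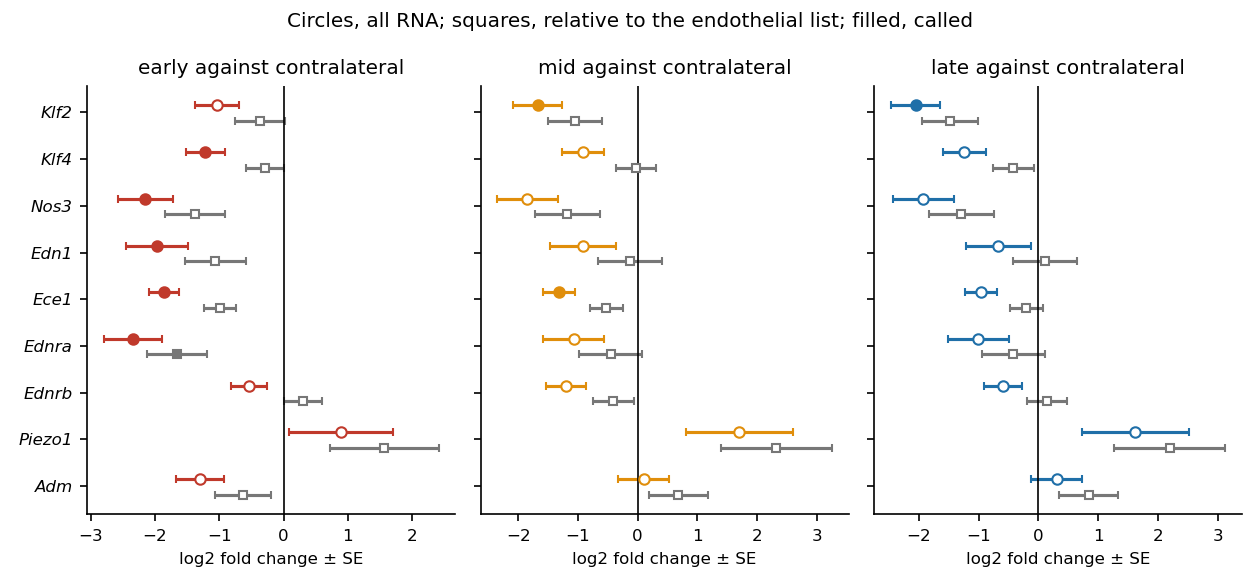
Log2 fold change (x axis, with SE) of each gene in early, mid, and late AVFs against contralateral veins, over all RNA (circles) and relative to the 12 endothelial markers (squares); filled symbols are called. *Klf2* late moves from -2.06 to -1.48 and *Ece1* early from -1.87 to -0.99, and most squares lie nearer 0 than their circles.

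Of the 7 genes from MEKK2 and MEKK3 (*Map3k2*, *Map3k3*) through MEK5 and ERK5 (*Map2k5*, *Mapk7*) to the MEF2 factors, 0 were called at any time, 0 had an unadjusted *p* under 0.05, and DESeq2 called 0. Their median log2 fold change was 0.54 early, 0.52 mid, and 0.80 late. *Mef2c* was at -0.52 early (adjusted *p* = 0.526) and *Mapk7* at 1.36 late (adjusted *p* = 0.351). Over all genes 6.45%, 3.31%, and 2.85% were called lower early, mid, and late. Of 10 mechanosensor genes 1 fell early, 2 mid, and 1 late. These were the adhesion molecule *Pecam1* (-1.80 early, adjusted *p* = 4.82e-06, and -1.15 mid, adjusted *p* = 0.00685) and VE-cadherin *Cdh5* (-1.75 mid, adjusted *p* = 0.00194, and -2.01 late, adjusted *p* = 0.000722), both also endothelial markers. Of the 9 other Krüppel-like factors, *Klf9*, a glucocorticoid-responsive member, fell at all 3 times (-1.91, -1.65, and -1.65, largest adjusted *p* = 0.000827), and *Klf15* early and mid (-2.90 and -2.80, adjusted *p* = 0.000144 and 0.00268).

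Genes that flow or KLF2 is known to induce were called most often in early AVFs. Of the 9 tested, 6 were lower and 1 higher early, 3 and 1 mid, and 1 and 1 late. Over all genes 12.6%, 6.05%, and 5.33% were called in either direction. Relative to the endothelial markers 4, 2, and 2 were called, beside 18%, 6.89%, and 5.67% of all genes. The lipid phosphatase *Plpp3* had 1005 ± 388.9 CPM in veins (SD, n = 7) and 154.6 ± 33.3 CPM in early AVFs (n = 8), and fell at all 3 times (-2.70, -1.73, and -1.41, largest adjusted *p* = 0.000268). The water channel *Aqp1* (-1.40, adjusted *p* = 4.68e-05), the angiopoietin receptor *Tek* (-2.49, adjusted *p* = 9.64e-05), and the scaffold *Slc9a3r2* (-1.86, adjusted *p* = 2.24e-05) were lower early, and *Slc9a3r2* and *Nqo1* mid (-1.60 and -2.21, adjusted *p* = 0.00157 and 0.00701). Prostacyclin synthase *Ptgis* rose at all 3 times (2.01, 2.04, and 2.11, largest adjusted *p* = 0.00103), from 31.8 ± 25.2 CPM in veins to 137.6 ± 23.8 CPM in late AVFs (n = 5).

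On the nitric oxide side, 12 of 13 listed genes were tested and *Nos1* was not. Of the 12, 5 fell and 2 rose early, 2 and 1 mid, and 2 and 1 late. Over all genes 12.6%, 6.05%, and 5.33% were called in either direction. Relative to the endothelial markers 4, 2, and 1 of the 12 were called, beside 18%, 6.89%, and 5.67% of all genes. *Gucy1a1*, a subunit of the nitric oxide receptor guanylate cyclase, fell at all 3 times (-3.51, -2.14, and -1.64, largest adjusted *p* = 0.00439), from 373.0 ± 155.2 CPM in veins to 32.6 ± 15.6 CPM in early AVFs, and its partner *Gucy1b1* fell early (-2.52, adjusted *p* = 0.000377). *Cav1*, which holds the synthase in check in caveolae, fell at all 3 times (-1.47, -1.53, and -1.53, largest adjusted *p* = 3.02e-05). *Arg2*, an arginase that competes for the synthase's substrate, rose at all 3 times (largest adjusted *p* = 0.00736): 5 of 7 veins had 0 counts and the group 0.0951 ± 0.219 CPM, against 11.9 ± 6.99 CPM in early AVFs and 1.89 ± 0.570 CPM in late AVFs.

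Among the partners of adrenomedullin, the genes of its receptor complex *Calcrl* and *Ramp2* were called lower at all 3 times. Of 8 listed genes 6 were tested, *Adm2* and *Ramp3* not, and 4 were lower early, 4 mid, and 2 late, with 0 higher. Over all genes 6.45%, 3.31%, and 2.85% were called lower. The summed endothelial markers were lower in the same AVFs. Relative to them 1, 0, and 0 of the 6 were called, beside 18%, 6.89%, and 5.67% of all genes. The decoy receptor *Ackr3* was at -0.61 early (adjusted *p* = 0.242) and *Gpr182* at -2.22 (adjusted *p* = 0.0237). *Calcrl*, the receptor, had 448.4 ± 204.5 CPM in veins and 91.8 ± 39.6 CPM in early AVFs, and fell at all 3 times (-2.29, -1.40, and -1.51, largest adjusted *p* = 0.00565). *Ramp2*, the partner that makes *Calcrl* bind adrenomedullin, fell at all 3 times (-1.53, -1.95, and -1.73, largest adjusted *p* = 0.000378). *Ramp1* (-1.82 and -1.67, adjusted *p* = 4.24e-05 and 0.00135) and *Pam*, which amidates the peptide (-1.84 and -1.53, adjusted *p* = 0.000150 and 0.00757), fell early and mid.

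Of the 6 other endothelin genes 3 were tested and 0 were called by edgeR against veins. Over all genes 12.6%, 6.05%, and 5.33% were called in either direction early, mid, and late. *Edn3* and *Cma1* had an unadjusted *p* under 0.05 at all 3 times, and DESeq2 called 2, 2, and 1 of the 3. The share of all genes under that unadjusted limit is not given here, and the DESeq2 totals are given further below. *Edn2*, *Ece2*, and *Kel* were not tested. The ligand *Edn3* had 53.6 ± 37.8 CPM in veins and 4.67 ± 12.4, 0.922 ± 0.467, and 5.57 ± 6.52 CPM in early, mid, and late AVFs, with 3 early libraries at 0. A list of 13 immediate early and heat shock genes, which respond to stress and handling, was also tested. Of the 13, 2 were called lower and 1 higher early, 2 lower mid, and 1 lower late, beside 12.6%, 6.05%, and 5.33% of all genes. The heat shock gene *Hspa1a* fell at all 3 times (-3.15, -3.26, and -2.75, largest adjusted *p* = 0.000756), and *Hspa1b* early and mid (-2.46 and -2.55, adjusted *p* = 0.000180 and 0.00173). Of the immediate early genes only *Ier3* was called against veins, higher early (1.24, adjusted *p* = 0.00608).

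**Figure D3:**
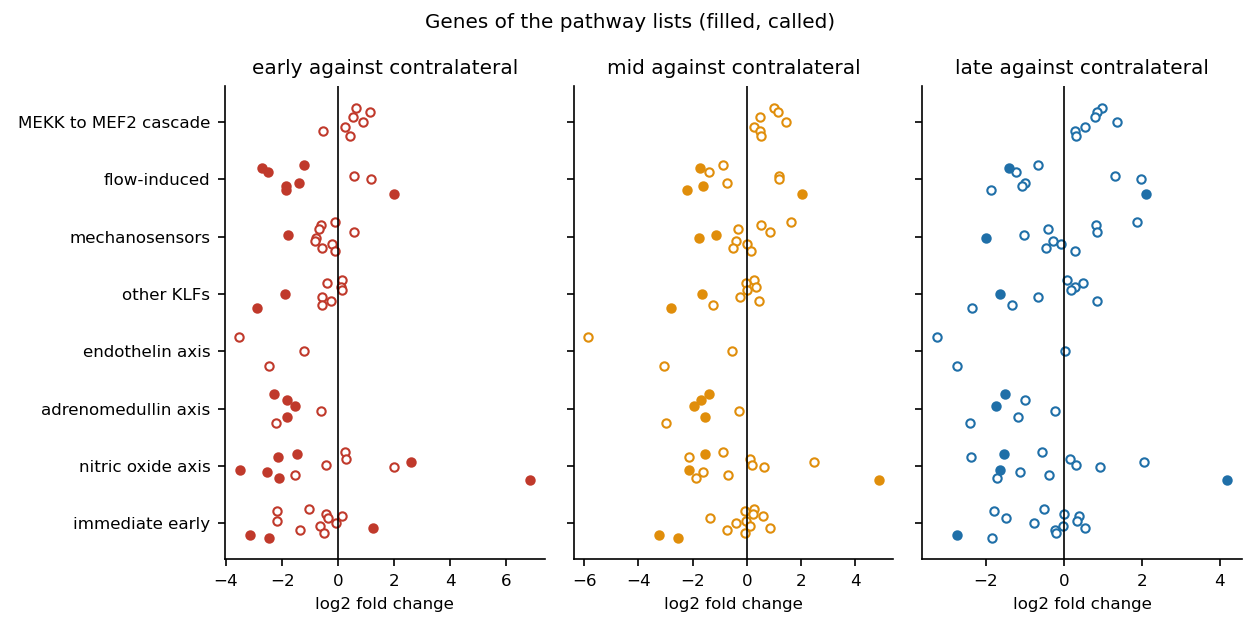
Log2 fold change (x axis) of every tested gene of 8 pathway lists (rows) in early, mid, and late AVFs against contralateral veins; each point is a gene and filled points are called. The cascade row holds no filled point, and the adrenomedullin row holds filled points only left of 0.

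The genes whose profile over the 25 libraries lay nearest to each of the 9 were found by the root-mean-square difference of standardized log2 CPM, a description without a test. *Ece1* lay nearest to *Cavin1* (0.357 SD) and *Edn1* to *Icam1* (0.430 SD), beside medians over all genes of 1.57 and 1.44 SD. *Klf2* lay nearest to *Gm2830*, *Tial1*, and *Hes1* (0.430, 0.466, and 0.475 SD), *Klf4* to *Gata6* (0.617 SD), *Nos3* to *Ctnna1* (0.498 SD), *Ednra* to *Ccdc47* (0.455 SD) and *Ebf1* (0.475 SD), *Adm* to *Gaa* (0.528 SD), and *Piezo1* to *Soga1* (0.273 SD). *Ednrb* had no near neighbor, with *Serinc3* at 0.718 SD.

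Single cells showed which cells held each transcript. After filtering 16893 of 26438 barcodes were kept, 6319 from contralateral veins, 4753 from early AVFs, and 5821 from late AVFs, with medians of 2751, 8951, and 15425 UMIs per cell, and pairs of libraries shared 14 to 19 barcodes. Each condition is 1 library, so no test was made, and intervals are exact and cover counting error only. The endothelial-like class, in which all 12 endothelial markers were detected, held 809 cells of the vein library (12.8%), 66 of the early (1.39%), and 73 of the late (1.25%). Doublet calls by Scrublet were 0, 2, and 120 cells, so doublets were not assessed in the first 2 libraries, and no cells were removed.

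*Nos3* was confined to endothelial cells more than any other gene of the set. Of its UMIs, 94.1% (95% interval 92.2 to 95.6%) in the vein library, 71.5% (64.1 to 78.1%) in the early library, and 50.7% (42.1 to 59.3%) in the late library lay in the endothelial class. Within that class its level was 252.4 CPM (234.7 to 271.2), 183.3 CPM (152.4 to 218.7), and 137.1 CPM (106.9 to 173.2). T cells, which should lack the gene, had 2.05, 0, and 0.234 CPM, and mono/macros and fibroblasts had 0.345 to 1.31 CPM in all 3 libraries.

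*Edn1* and *Ece1* were likewise highest in endothelial cells but were shared with fibroblasts in AVFs. In endothelial cells *Edn1* had 313.4, 220.6, and 346.7 CPM in the vein, early, and late libraries, and in fibroblasts 11.89, 21.96, and 61.98 CPM. The endothelial class held 81.1% of *Edn1* UMIs in the vein library and 24.5% in the early, and fibroblasts held 80.2% in the late. *Ece1* had 935.2 CPM (900.7 to 970.7), 569.3 CPM (513.6 to 629.4), and 764.0 CPM (690.0 to 843.7) in endothelial cells and 52.4 to 74.3 CPM in fibroblasts. The endothelial share of its UMIs was 68.6% in veins and 20.7% in early AVFs, and 60.7% lay in fibroblasts in late AVFs.

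Most UMIs of the receptors lay in other cells. *Ednra* lay mainly in fibroblasts, with 78.7%, 81.5%, and 91.1% of its UMIs, at 26.2, 49.0, and 28.8 CPM. Its level in smooth muscle was 158.9 CPM (117.6 to 210.1) over 30 cells of the vein library, 17.3 CPM (13.8 to 21.4) over 222 early cells, and 8.41 CPM (6.89 to 10.2) over 509 late cells, and endothelial cells had 2.98 to 8.09 CPM. The 9 smooth muscle markers summed to 32960, 20340, and 24950 CPM in the same class. Smooth muscle made up 0.475% of the kept vein cells, while its markers summed to 12110 to 25270 CPM in bulk veins. The shares of *Ednra* UMIs are those of recovered cells, and its sources in whole tissue were not measured. *Ednrb* lay mainly in mono/macros, with 67.4%, 95.1%, and 83.1% of its UMIs, and its level there was 466.8 CPM (442.8 to 491.7), 108.2 CPM (104.4 to 112.1), and 64.3 CPM (61.2 to 67.7). The mono/macros of the 3 libraries were not the same clusters: a cluster led by *F13a1*, *Mrc1*, and *Cd163* held 417 of the 485 vein cells, 17 of 1969 early cells, and 9 of 1563 late cells. Endothelial cells had 130.1, 37.3, and 137.1 CPM of *Ednrb*, in the late library above the level of mono/macros, and Schwann-like cells of the vein library 119.1 CPM.

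**Figure D4:**
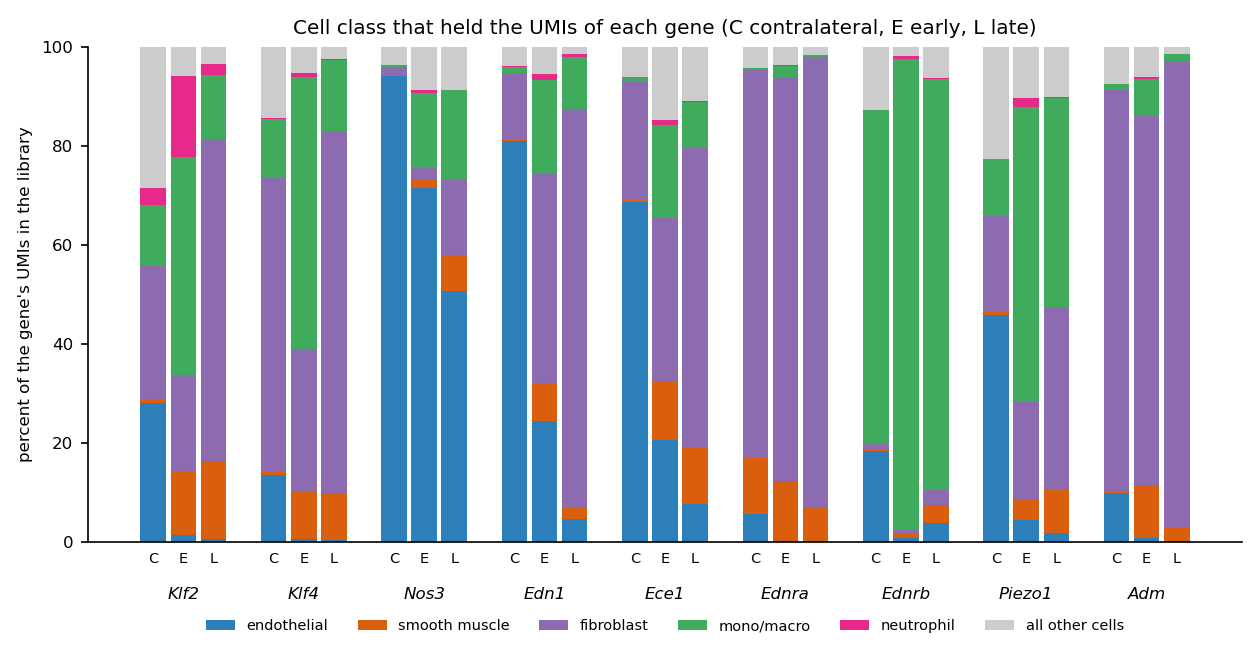
Share of the UMIs of each gene, in percent of the library's UMIs of that gene, held by 5 cell classes and by all other cells in the contralateral (C), early (E), and late (L) single-cell libraries. The endothelial share of *Nos3* goes from 94.1% to 50.7%, *Ednrb* is mostly mono/macro, and *Ednra* and *Adm* mostly fibroblast in all 3.

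*Klf2* and *Klf4* were not endothelial genes in these cells alone. In endothelial cells *Klf2* had 1048 CPM (1012 to 1086), 509.7 CPM (457.1 to 566.7), and 1164 CPM (1072 to 1261), and *Klf4* had 930.8 CPM (896.4 to 966.2), 205.7 CPM (172.8 to 243.0), and 1146 CPM (1055 to 1243). Neutrophils had more *Klf2* still, 1822, 1167, and 1947 CPM. In fibroblasts *Klf2* had 229.5, 388.4, and 1163 CPM and *Klf4* 930.2, 561.4, and 1751 CPM. Different clusters supplied these fibroblasts: 1759 of the 1870 vein cells came from a cluster led by *Inmt* and *Sfrp2*, and 1942 of the 1978 late cells from a cluster led by *Ptx3* and *Serping1*. The share of *Klf2* UMIs in the endothelial class was 28.0% in the vein library. The largest share lay in mono/macros in the early library (44.1%) and in fibroblasts in the late library (65.1%).

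The bulk and single-cell values of *Klf2* differed in direction. Over all kept cells *Klf2* had 380.0, 418.4, and 914.7 CPM in the vein, early, and late libraries, at times that differ from those of the bulk AVFs, whereas bulk means were 129.2 ± 28.4 CPM in veins (n = 7) and 31.1 ± 13.5 CPM in late AVFs (n = 5). *Klf4* had 694.7, 402.9, and 1224 CPM over all kept cells and 115.6 ± 46.0 and 49.0 ± 11.5 CPM in bulk veins and late AVFs. Cells were released by a long warm digestion, and bulk tissue was frozen and ground. The 13 immediate early and heat shock genes summed to 22320, 23850, and 42390 CPM in fibroblasts and to 12010, 5705, and 24690 CPM in endothelial cells, and to 323.2 to 3873 CPM in bulk libraries. Their part in the *Klf2* and *Klf4* levels was not tested.

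*Piezo1* in endothelial cells had 142.2 CPM (129.0 to 156.5), 149.0 CPM (121.3 to 181.3), and 123.4 CPM (94.8 to 157.9), and these intervals overlap. Mono/macros had 34.8, 46.4, and 65.2 CPM, and held 59.6% of its UMIs in the early and 42.2% in the late library, against 45.9% in endothelial cells of the vein library. *Adm* lay mainly in fibroblasts, with 80.8%, 74.8%, and 94.4% of its UMIs, at 148.0 CPM (141.4 to 154.7), 86.3 CPM (81.0 to 91.8), and 263.3 CPM (258.8 to 267.8). Endothelial cells had 79.2, 16.4, and 62.7 CPM of *Adm*.

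**Figure D5:**
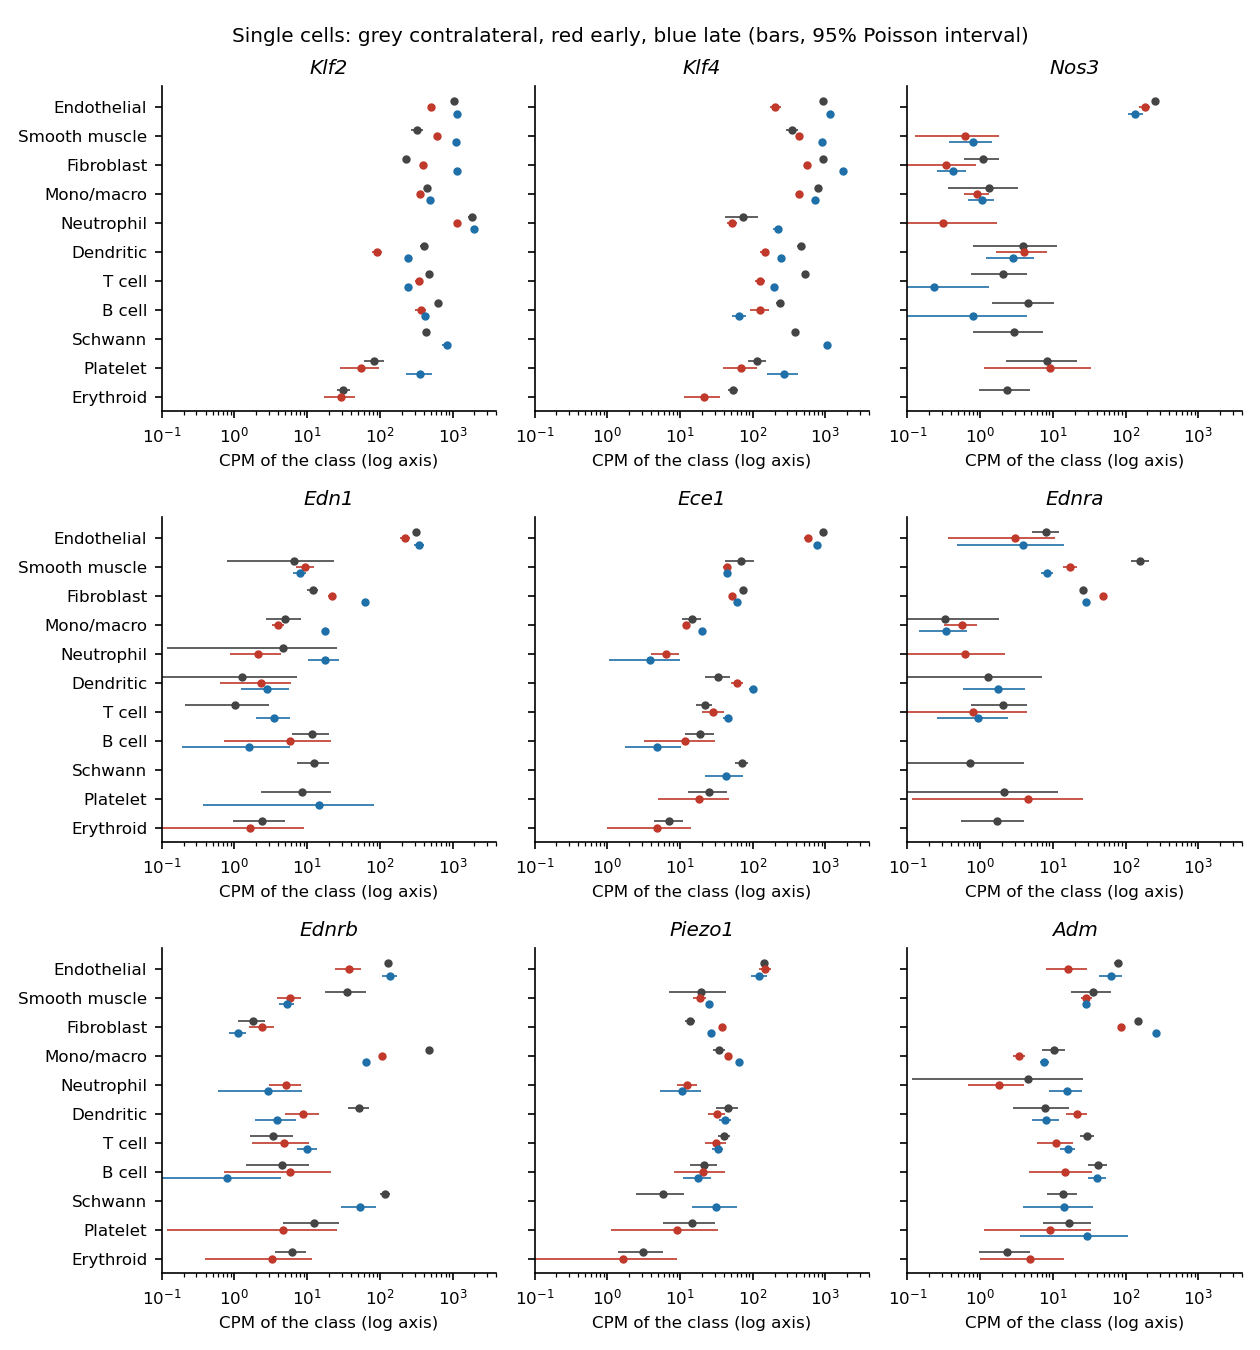
Level of each gene in 11 cell classes (rows) of the contralateral (grey), early (red), and late (blue) single-cell libraries, in CPM on a log axis, with exact 95% Poisson intervals; classes under 20 cells are left out, as are classes at 0 UMIs. *Nos3*, *Edn1*, and *Ece1* peak in the endothelial row and *Klf2* in the neutrophil row.

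The endothelial class was not the same mixture in the 3 libraries. The 5 lymphatic endothelial markers summed to 911.6, 329.4, and 3064 CPM in it, and 47 of the 73 late cells had a UMI of *Prox1*, *Flt4*, or *Reln*. *Ccl21a* was counted at 0 UMIs in all 3 libraries, but levels were read from only 1 matrix row per symbol. That symbol led an endothelial cluster at resolution 1.0, where every row was read. The 0 is therefore not a measure of the gene, and the sums and the choice of cells with lymphatic UMIs lack its counts. Leaving out such cells, a choice made after the data were seen, left 566 vein, 41 early, and 26 late cells. The cells left can still include lymphatic ones. At resolution 1.0 the cluster led by *Ccl21a* and *Mmrn1* held 486 vein, 50 early, and 69 late cells, and that led by *Vwf* 299, 17, and 4. In the 566, 41, and 26 cells left, not in those 2 clusters, *Klf2* had 1023 CPM (975.6 to 1073), 326.1 CPM (264.4 to 397.8), and 554.5 CPM (455.3 to 668.9). *Klf4* had 842.6, 178.2, and 590.1 CPM in them, so the late levels no longer reached those of veins. *Nos3* had 270.0 CPM (245.7 to 296.0), 164.7 CPM (121.9 to 217.8), and 117.0 CPM (74.2 to 175.6), and *Ece1* 886.7, 490.8, and 468.0 CPM. *Edn1* had 339.6 CPM (312.3 to 368.6), 154.6 CPM (113.2 to 206.2), and 691.8 CPM (580.5 to 818.4), the highest late value of its kind.

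The cells with and without lymphatic UMIs differed in *Adm* and *Ednrb* as well. *Adm* had 162.6 CPM in the 243 vein cells with such UMIs and 15.5 CPM in the 566 without, and *Ednrb* 248.9 and 39.3 CPM. In late AVFs the order for *Adm* was the reverse, 38.2 CPM (19.8 to 66.8) in the 47 cells with and 101.7 CPM (62.2 to 157.1) in the 26 without. *Piezo1* differed little between them in veins, 150.1 CPM (129.7 to 172.9) and 136.2 CPM (119.1 to 155.0).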

How the data were processed

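Read counts per gene, raw and unfiltered, were deposited by the authors for 25 bulk libraries of single vessels, made with an ultra-low-input poly(A) protocol. UMI counts per gene and cell were deposited for 3 single-cell libraries by Cell Ranger 6.0.2 (the version in the file headers), for barcodes it called cells. The submitters' processing notes name STAR, Cell Ranger, mm10, and GRCm38 without roles, and for the counter, annotation, and strand setting nothing was given in the sources used here. Groups came from the deposited labels, and 1 vessel gave 1 library. The genes and lists were chosen with earlier results of these data known.

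Of 56980 genes, the 12673 whose mean count after DESeq2 normalization reached 100 were tested with edgeR 4.0.16 (R 4.3.3), with TMM scaling and a mean per group over all 25 libraries (common dispersion 0.710, coefficient of variation 0.843). Adjusted *p* values are Benjamini–Hochberg over all of these. CPM are counts per 1000000, of TMM-scaled libraries in bulk and of summed UMIs in cells. A second fit shifted library offsets by the mean log2 CPM (prior count 2) of the endothelial markers. The test was checked on simulated data. Alternatives were DESeq2 1.42.0, a likelihood ratio test, other scaling, filters, groups, and sex terms, and leaving out each library. Named from the pathway lists were called genes, at most the 4 of smallest adjusted *p* per list and comparison, and genes not tested; likeness was searched for the nearest 3 genes.

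Barcodes were kept if they had 200 to 6000 genes and no more than 10% mitochondrial UMIs, scaled to 10000, and clustered with scanpy 1.11.5 and leidenalg 0.10.2 (2000 variable genes without members or markers, 12 components, 20 neighbors, resolution 0.5). Clusters were named from markers by a rule taken over from earlier work on these data. Of 16 clusters 1, of 1246 cells and low depth, stayed unnamed.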

Additional observations from a re-analysis of the deposited data

Results flagged for a closer look

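In 5 of the 36 groups of libraries (9 genes in 4 groups) 1 library stood apart by Dixon's test on CPM. Chance marks about 1 in 20 only where values are normally distributed and groups independent. CPM were not transformed, the 9 genes share the same libraries, and all 5 values stood on the high side. Vein 632 had 28.51 CPM of *Piezo1*, with the next vein at 4.58 CPM. Vein 28 had 633.1 CPM of *Ednra*, with the next at 286.0 CPM. Among early AVFs, library 10 had 107.9 CPM of *Klf4* (next 62.52 CPM), library 6 had 37.49 CPM of *Nos3* (next 17.09 CPM), and library 4 had 204.8 CPM of *Ece1* (next 139.0 CPM).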

How the results depend on the processing

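Calls changed with the libraries kept, veins and AVFs alike, and with the test. With DESeq2 7, 4, and 3 of the 9 genes were called early, mid, and late. Without the 8 libraries whose sex label disagreed with *Xist* and Y-linked genes, 2 (*Ece1* and *Klf4*) were called early and 0 mid. This alternative was chosen after the data were seen. It left late AVF 16 alone in its group, so no late count is given. In female mice alone 1 (*Ece1*), 0, and 0 were called, and in fits of only the groups compared 2 (*Ece1* and *Ednra*), 1 (*Klf2*), and 1 (*Klf2*). No paired analysis was possible because the bulk groups share no replicate numbers. The 66 early and 73 late endothelial cells limit the single-cell values.

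Over all genes, 1599, 767, and 676 were called early, mid, and late against veins, 1, 381, and 0 in mid against early, late against early, and late against mid, and 1613 over the 4 groups. In the same order DESeq2 called 2440, 1418, 1294, 474, 753, and 1, a threshold of 0.05 called 2520, 1421, 1304, 482, and 795, with 2438 over the 4 groups, filterByExpr 3803, 2823, 2696, and 0, with 3097 over the 4 groups, and no filter 3938, 2728, 2567, with 208 late against early and 2858 over the 4 groups. The likelihood ratio test called 1158 mid, 1044 late, 356 mid against early, and 625 late against early. Fits of only the groups compared called 632, 339, 223, 0, and 587. Female mice alone gave 327, 192, 173, 0, and 0, with 223 over the 4 groups. Without those 8 libraries 657, 115, 15, 1, and 3 were called, with 346 over the 4 groups. Mid against early gave 0 with relative log expression scaling or the sex label in the model and 246 with sex taken from *Xist* and Y-linked genes. Leaving out 1 library at a time gave 1370 to 1825, 530 to 955, 432 to 889, 0 to 305, 32 to 549, and 0 to 0, and 1321 to 1813 over the 4 groups. Late against early fell to 32 without late AVF 16 and rose to 549 without vein 28, and mid against early rose to 305 without early AVF 10.

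Relative to the endothelial markers 2280, 873, and 719 genes were called early, mid, and late (left-out ranges 1854 to 3358, 565 to 1529, and 491 to 1309, the highest without vein 31). Relative to *Pecam1* and *Cdh5* alone they were 4420, 2981, and 3126, to smooth muscle markers 10661, 9425, and 7533, and to fibroblast markers 361 mid and 293 late.

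Signs turned as follows. Relative to smooth muscle markers, values became positive early for *Klf2* (2.07), *Klf4* (2.10), *Nos3* (1.07), *Edn1* (1.45), *Ednra* (1.11), *Ece1* (1.47), and *Adm* (2.07), mid for *Klf2* (1.11), *Klf4* (1.95), *Nos3* (0.99), *Edn1* (1.95), *Ednra* (1.91), *Ednrb* (1.70), and *Ece1* (1.52), and late for *Klf2* (0.14), *Klf4* (1.07), *Nos3* (0.42), *Ednra* (1.47), and *Ece1* (1.39). Relative to *Pecam1* and *Cdh5* alone they became positive early for *Klf2* (0.20), *Klf4* (0.10), and *Adm* (0.073), mid for *Klf4* (0.49), *Edn1* (0.41), *Ednra* (0.28), *Ednrb* (0.27), and *Ece1* (0.058), and late for *Klf4* (0.18), *Ednra* (0.40), and *Ece1* (0.47). Relative to fibroblast markers early *Klf2* was 0.52, mid *Adm* -0.079, and late *Edn1* -0.97, *Ednrb* -0.95, and *Adm* -0.032. Over all RNA the sign of values near 0 turned. *Klf4* late against early was 0.0066 with DESeq2 and with relative log expression, 0.055 with filterByExpr, 0.015 without a filter, 0.050 with sex from *Xist* and Y-linked genes, and -0.10 to 0.28 over left-out fits (9 turned). *Ednrb* late against early was 0.54 in female mice, 0.028 with filterByExpr, 0.064 with the sex label, 0.023 without the 8 libraries of disagreeing sex label, and -0.15 to 0.10 over left-out fits (6 turned). *Adm* mid was -0.12 in female mice and -0.11 to 0.27 over left-out fits (3 turned). Relative to endothelial markers *Edn1* late was -0.10 to 0.23 over left-out fits (1 turned) and *Klf4* mid -0.24 to 0.096 (4 turned). The cause was not tested.

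Endothelial CPM also moved beyond counting error. Without cells with lymphatic UMIs, chosen after the data were seen, vein values were *Klf4* 842.6, *Edn1* 339.6, *Ednra* 13.7, *Ednrb* 39.3, *Ece1* 886.7, and *Adm* 15.5, early values *Klf2* 326.1, *Edn1* 154.6, and *Ece1* 490.8, and late values *Klf2* 554.5, *Klf4* 590.1, *Edn1* 691.8, *Ednrb* 81.4, *Ece1* 468.0, and *Adm* 101.7. A gate on endothelial markers in place of clusters (250, 35, and 10 cells) gave vein values of *Klf2* 913.5, *Klf4* 750.4, *Edn1* 275.7, *Ednra* 1.199, *Ednrb* 173.8, *Ece1* 890.7, and *Adm* 40.8, early values of *Klf2* 312.8, *Klf4* 150.6, *Nos3* 139.0, *Edn1* 65.6, *Ednra* 0, *Ednrb* 19.3, and *Adm* 7.72, and late values of *Klf2* 921.3, *Klf4* 450.0, *Nos3* 342.8, *Edn1* 21.4, *Ednra* 0, *Ednrb* 0, *Ece1* 578.5, *Piezo1* 64.3, and *Adm* 42.9. A mitochondrial limit of 20% gave *Ece1* 865.8 in veins and *Klf4* 1049 and *Edn1* 502.7 late.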

Other observations

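Partners of these genes were measured in the same endothelial-like cells. *Calcrl*, the adrenomedullin receptor, had 711.1 CPM (95% interval 681.1 to 742.1) in the vein library, 232.5 CPM (197.4 to 272.0) in the early, and 223.3 CPM (184.2 to 268.3) in the late library, and the decoy receptor *Ackr3* had 365.0, 122.2, and 244.9 CPM. *Ramp2*, which fell in bulk RNA, had 461.0 CPM (436.9 to 486.1), 804.8 CPM (738.3 to 875.6), and 491.7 CPM (432.7 to 556.4). *Plpp3*, a target of flow, had 605.3, 155.0, and 366.3 CPM, and *Ptgis*, the prostacyclin synthase, 11.5 CPM (7.94 to 16.0), 90.9 CPM (69.5 to 116.8), and 74.4 CPM (52.7 to 102.2).

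Other Krüppel-like factors did not follow 1 course in these cells. *Klf9* had 389.6 CPM (367.5 to 412.7), 62.6 CPM (45.1 to 84.6), and 215.5 CPM (177.1 to 259.7) in the vein, early, and late libraries. *Klf6* had 506.9 CPM (481.6 to 533.1), 466.5 CPM (416.2 to 521.1), and 1434 CPM (1332 to 1542). The channel *Piezo2* had 24.6 CPM (19.3 to 30.9), 34.3 CPM (21.7 to 51.4), and 109.7 CPM (82.9 to 142.5). With 1 library per condition none of these differences was tested.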
